A study of Mus musculus with 4 samples.

Results

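Of the open chromatin that was called in every lung tumour library, 3918 regions lay outside protein-coding genes, over 10 kb and at most 100 kb from the nearest one. They were the autosomal merged regions that overlapped, by 1 bp or more, a peak of each of the 4 libraries, with distances taken to the bodies of RefSeq protein-coding genes in mm10. They made up 14.8% of the 26402 autosomal regions called in all 4 libraries, among 60713 autosomal and 61972 merged regions in all. The set was chosen by the peak calls of all 4 libraries and the distance to genes. That they were called in every library is therefore not a result, and the shares of regions called in all 4 libraries below are descriptions.

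The regions came from ATAC-seq, in which a transposase inserts adapters into accessible DNA, of snap-frozen lung tumours from 4 mice of strain C57B6J, all 55 weeks old. The KrasLA1;Dicer1S2D group held 2 mice, 1 female (replicate 1) and 1 male (replicate 2), that were heterozygous for both alleles, KrasLA1/+;Dicer1S2D/+. The KrasLA1 group held 2 mice, again 1 female (replicate 1) and 1 male (replicate 2), that were KrasLA1/+. All 4 mice thus carried KrasLA1, a latent oncogenic allele that becomes active after spontaneous recombination in scattered cells. Dissected tumours hold host cells as well. Dicer1S2D is an allele of Dicer1, the enzyme that cuts microRNA precursors, with serines changed to aspartate to mimic phosphorylation. Each library is 1 sample of 1 mouse, and the labels do not say whether a sample was a single tumour. Sex and replicate number were the same division of the libraries.

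Open regions far from genes are often enhancers, stretches where transcription factors bind and from which they can act on promoters over long distances. They also include insulator sites and the starts of non-coding transcripts, such as long non-coding RNAs (lncRNAs), transfer RNAs and microRNA precursors. In the lung, factors such as Nkx2-1, Foxa2, Gata6 and Cebpa set up alveolar identity, and such genes commonly stand beside wide gaps without genes. Position alone does not say which gene a region acts on, and the nearest gene is used below only as an address.

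The deposited intervals give only where a peak was called and how wide it was, with no height, read count or score. The authors called 50282 and 34767 peaks in the KrasLA1;Dicer1S2D libraries and 41621 and 44654 in the KrasLA1 libraries, replicates 1 and 2 in each case, and the sequencing depth is unknown. In bulk tumour, fewer cells with an open site and a less open site in every cell cannot be told apart. A shared region within 2 kb of an end of the gene was present for 16 of 18 alveolar type 2 genes, 9 of 12 alveolar type 1 genes and 10 of 12 epithelial genes. The same held for 7 of 12 airway, 4 of 12 myeloid, 3 of 12 lymphocyte, 1 of 12 endothelial and 1 of 12 fibroblast and smooth muscle genes. Pecam1, Cdh5, Csf1r and Pdgfra had no peak within 2 kb of their ends in any library. Neither had the epithelial genes Cldn18 and Tjp1, the airway gene Tubb4b or the housekeeping gene Ywhaz. A missing peak at a gene end therefore does not show that a cell type was absent. Among these cell type lists, the alveolar and epithelial ones were thus the most often open at gene ends.

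The word intergenic holds for protein-coding genes only. Of the 3918 regions, 1200 (30.6%, 95% Wilson interval 29.2 to 32.1) overlapped some other gene of the RefSeq table, 1114 of them a lncRNA gene. A lncRNA start lay within 242 of the regions (6.18%, 5.46 to 6.97), with 270 start sites of 247 lncRNA genes. Of these start sites, 206 (76.3%) fell within bases that all 4 libraries covered. Wilson intervals in this text cover counting error only.

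Because the regions at lncRNA starts are the ones whose sequence the reference tables hold, 5 start windows are shown, to show how differently such starts are built. Each window runs from 250 bases before to 50 bases after the start, 5′ to 3′ on the strand of the lncRNA, from RefSeq (GRCm38.p6). Dleu2, the host transcript of miR-16-1, starts in the widest of all 3918 regions (window chr14:61682324-61682623, minus strand). Junos is transcribed next to Jun on the opposite strand (chr4:95075386-95075685, plus strand). Mirc35hg is the host transcript of the miR-183, miR-96 and miR-182 precursors (chr6:30174076-30174375, minus strand). Chaserr, an lncRNA known to lower Chd2 expression, lies beside Chd2 (chr7:73558346-73558645, minus strand). Snhg5 hosts small nucleolar RNAs (chr9:88522848-88523147, minus strand). Capitals mark every match, on either strand, to any of the 13 motifs searched, which are named below.
Dleu2: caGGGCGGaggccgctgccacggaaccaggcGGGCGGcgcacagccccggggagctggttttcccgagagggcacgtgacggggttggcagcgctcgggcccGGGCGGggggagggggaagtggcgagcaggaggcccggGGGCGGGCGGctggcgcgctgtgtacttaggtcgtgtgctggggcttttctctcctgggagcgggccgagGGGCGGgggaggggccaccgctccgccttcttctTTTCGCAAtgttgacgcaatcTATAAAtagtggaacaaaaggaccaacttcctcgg
Junos: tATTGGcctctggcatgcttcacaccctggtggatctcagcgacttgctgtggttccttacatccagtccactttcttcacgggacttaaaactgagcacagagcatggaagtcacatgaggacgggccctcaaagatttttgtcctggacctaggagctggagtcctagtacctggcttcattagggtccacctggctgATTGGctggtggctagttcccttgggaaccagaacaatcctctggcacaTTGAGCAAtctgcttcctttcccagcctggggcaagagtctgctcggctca
Mirc35hg: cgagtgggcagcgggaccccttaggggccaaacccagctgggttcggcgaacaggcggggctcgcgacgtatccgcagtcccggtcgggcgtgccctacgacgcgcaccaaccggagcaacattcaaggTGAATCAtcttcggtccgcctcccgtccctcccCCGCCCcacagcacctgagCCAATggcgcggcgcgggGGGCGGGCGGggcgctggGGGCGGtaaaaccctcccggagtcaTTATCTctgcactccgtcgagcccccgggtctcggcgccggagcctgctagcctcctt
Chaserr: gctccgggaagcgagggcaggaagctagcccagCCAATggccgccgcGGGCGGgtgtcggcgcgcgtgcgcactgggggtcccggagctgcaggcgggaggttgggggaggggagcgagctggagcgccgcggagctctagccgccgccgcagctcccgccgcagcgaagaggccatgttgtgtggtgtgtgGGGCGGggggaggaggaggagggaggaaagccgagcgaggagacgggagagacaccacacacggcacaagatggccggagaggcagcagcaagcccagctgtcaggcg
Snhg5: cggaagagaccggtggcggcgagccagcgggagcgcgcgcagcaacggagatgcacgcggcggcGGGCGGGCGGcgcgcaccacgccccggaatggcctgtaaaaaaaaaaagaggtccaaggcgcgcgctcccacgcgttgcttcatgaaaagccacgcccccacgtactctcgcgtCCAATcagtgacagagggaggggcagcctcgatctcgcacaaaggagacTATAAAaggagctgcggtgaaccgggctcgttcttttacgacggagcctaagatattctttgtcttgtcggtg

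The Dleu2 window held 6 matches to the GC box, 1 to the C/EBP motif and 1 to the TATA box, at 69% G and C. The Mirc35hg window held 4 GC boxes, 1 AP-1 match, 1 GATA match and 1 CCAAT box, at 70.3% G and C. The Chaserr and Snhg5 windows each held 2 GC boxes and 1 CCAAT box, and that of Snhg5 1 TATA box as well. Overlapping GC boxes were counted each. The Junos window differed from these 4: it held no GC box, had 4 CpG dinucleotides against 29 to 36 in the others, and carried 2 CCAAT boxes and 1 C/EBP match. Its CpG content was 0.188 of that expected from its base composition, against 0.856 for Dleu2, 0.946 for Mirc35hg, 0.826 for Chaserr and 1.26 for Snhg5.

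Among all 270 start windows inside the regions, the low-CpG form was the common one. Their median G and C content was 51.5% and their median CpG ratio, observed over expected, was 0.354, and 63 (23.3%) had a ratio over 0.6. The 1172 lncRNA start windows in other shared regions had medians of 63.3% and 0.794, and 70.6% of them passed 0.6. For 9425 lncRNA starts in no called region the values were 47.3%, 0.216 and 6.49%, and for 9636 protein-coding starts in shared regions 62.3%, 0.798 and 79.0%. The lncRNA starts far from genes thus lay between lncRNA starts with no peak and the starts of protein-coding genes in base composition. Of the other shared regions with a lncRNA start, 782 lay within 2 kb of an end of a protein-coding gene, 163 inside a gene, 86 outside genes up to 10 kb and 44 over 100 kb away.

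The motifs were searched on both strands. The AP-1 letters were TGANTCA, those of C/EBP TTGCNNAA, those of GATA factors AGATAA and those of FOXA TGTTTAC. NKX2-1 was searched as CACTTGA, TEAD as CATTCCA, ETS as CCGGAAGT, KLF as GGGGTGGG and HNF4 as CAAAGTCCA. The GC box was GGGCGG, the CCAAT box its own letters and the TATA box TATAAA, and CTCF was searched by its core motif. A GC box was present in 27.0% of the 270 windows (22.1 to 32.6), against 36.0% of all 31365 autosomal start windows, 63.1% of the lncRNA windows in other shared regions and 9.87% of those in no region. An AP-1 match was present in 11.5% (8.21 to 15.8), against 7.85% of all windows, 5.38% of the lncRNA windows in other shared regions and 9.31% of those in no region. A C/EBP match was present in 17.4% (13.4 to 22.4), against 10.9% and 8.45% in the first 2 of these sets and 1132 of the 9425 windows in no region. FOXA matches were found in 6.67% (4.26 to 10.3), against 3.71% of all windows and 5.07% of the lncRNA windows in no region. In the same order, TEAD stood at 6.67% against 4.32% and 5.55%, and NKX2-1 at 4.81% (2.84 to 8.06) against 3.06% and 3.20%. GATA stood at 12.6% (9.15 to 17.1) against 11.2% and 15.3%, so its direction depended on the set compared. CTCF was found in 27 of the 270 windows against 8.73% and 5.29%, and HNF4 in 0.741% against 0.488% and 0.562%. ETS stood at 2.96% against 3.95% and 0.987%, and KLF at 7.41% against 9.46% and 7.68%. The CCAAT box stood at 31.5% against 37.3% and 36.7%, and the TATA box at 11.1% against 13.6% and 16.9%. In the lncRNA windows of other shared regions, CTCF stood higher than in the 270 windows, at 13.1% against 10%. ETS (6.14%), KLF (10.6%) and the CCAAT box (32.2%) were also higher there. FOXA (2.90%), TEAD (2.65%), NKX2-1 (2.90%), GATA (3.75%), HNF4 (0.171%) and the TATA box (5.46%) were lower there. The directions of the GC box, CTCF, ETS and the TATA box thus also depended on the set compared. AP-1, C/EBP, FOXA, TEAD, GATA and TATA letters hold more A and T than the GC box, so base composition moves with these shares, and its part in them was not tested.

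MicroRNA precursors are the substrates of Dicer1, and 28 of 919 autosomal precursors were linked to the regions by distance or by a lncRNA host. A region lay within 2 kb of 19 precursors (all of them 10 to 100 kb from a protein-coding gene themselves), and 10 precursors lay in a lncRNA gene with a start in a region. The mature sequences of the best-known of them are given, from RefSeq, with the seed (bases 2 to 8, which pairs with target messages) in capitals. The first 6 come from a single cluster, the next is a let-7, and the others were reached through lncRNA hosts or stand alone.
miR-17-5p: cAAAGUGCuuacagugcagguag
miR-18a-5p: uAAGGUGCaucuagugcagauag
miR-19a-3p: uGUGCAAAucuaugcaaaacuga
miR-20a-5p: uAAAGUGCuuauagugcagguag
miR-19b-3p: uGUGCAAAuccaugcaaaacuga
miR-92a-3p: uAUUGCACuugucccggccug
let-7b-5p: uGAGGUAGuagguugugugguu
miR-29b-3p: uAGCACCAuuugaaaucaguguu
miR-29c-3p: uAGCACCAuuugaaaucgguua
miR-16-5p: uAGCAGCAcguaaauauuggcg
miR-182-5p: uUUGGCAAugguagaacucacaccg
miR-96-5p: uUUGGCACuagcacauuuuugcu
miR-183-5p: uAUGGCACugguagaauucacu
miR-30a-5p: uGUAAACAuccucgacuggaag

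Seeds were shared by miR-17-5p and miR-20a-5p, by miR-19a-3p and miR-19b-3p, and by miR-29b-3p and miR-29c-3p. The miR-17 to miR-92a cluster promotes proliferation in many tumours, and a region lay 965 bp before the first precursor, Mir17, at chr14:115041998-115042706, 49495 bp from Gpc5. It was 478 and 403 bp wide in the KrasLA1;Dicer1S2D tumours, against 702 and 580 bp in the KrasLA1 tumours. The groups did not overlap, as with 21.4% of the shared intergenic regions and 27.2% of all shared regions that were narrower in KrasLA1;Dicer1S2D, and after centring on each library's median the log2 difference was -0.38 (SE 0.30, limma, adjusted p = 0.999). The region 1522 bp from Mirlet7b, of the let-7 family, known for its part in developmental timing in worms, lay at chr15:85708925-85709929. It was 405 and 204 bp wide in the KrasLA1;Dicer1S2D tumours, against 777 and 857 bp in the KrasLA1 tumours, a centred log2 difference of -1.34 (SE 0.37, limma, unadjusted p = 0.00908 and adjusted p = 0.999). Both let-7 values of KrasLA1;Dicer1S2D were below both of KrasLA1, yet the difference did not pass the test over all 26402 shared regions.

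Taking the nearest region of each, the 28 precursors were assigned to 20 different regions, at distances of up to 19102 bp. For a precursor in a lncRNA host, the nearest region was not always the one at the host's start. On widths as deposited the groups did not overlap at 8 of the 20, all narrower in KrasLA1;Dicer1S2D. Over all shared regions 27.2% were apart and narrower, and 3.66% apart and wider. On widths divided by the library median they did not overlap at 7 narrower and 1 wider region, against 10.8% and 16.9% of all shared regions, and limma gave each of the 20 an adjusted p of 0.999. Among the others, the region 405 bp from Mir30a was 503 and 810 bp wide in KrasLA1;Dicer1S2D and 317 and 773 bp in KrasLA1. Beside Mir193a the widths were 759 and 681 bp in KrasLA1;Dicer1S2D, against 768 and 972 bp in KrasLA1. The start of A330023F24Rik, the lncRNA that holds Mir29b-2 and Mir29c, was 1374 and 1600 bp wide in KrasLA1;Dicer1S2D and 1314 and 1590 bp in KrasLA1. Of the 13 genes of the microRNA machinery, among them Dicer1, Drosha, Dgcr8 and Ago2, 0 were the nearest gene of a shared intergenic region. The share over all genes was 11.1%. These 13 genes stand in narrow gaps: 8 had a gap wide enough to hold such a region. The median usable gap was 0.39 kb per gene, against 3.64 kb for all genes. A shared region within 2 kb of an end of the gene was present for 10 of the 13. Dicer1 had 2 intergenic regions in this distance range, of which the KrasLA1;Dicer1S2D libraries called 1 and 1 and the KrasLA1 libraries 2 and 0.

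Regions at lncRNA starts were wider than the other 3676 shared intergenic regions in all 4 libraries. Their median widths were 680.5 and 639.5 bp in KrasLA1;Dicer1S2D and 663.5 and 808.5 bp in KrasLA1, against 520 and 456.5 bp and 496 and 591 bp for the others in the same libraries. The difference was 160.5 and 183 bp in KrasLA1;Dicer1S2D and 167.5 and 217.5 bp in KrasLA1, 182 bp on average. An exact two-sided sign-flip test over the 4 libraries gave p = 0.13, the smallest it can give. A start counted wherever it fell in the merged region, so wider regions were more likely to be picked. The test cannot separate this from a difference in width. At the named starts, the Dleu2 region was 2102 and 2341 bp wide in KrasLA1;Dicer1S2D, against 2329 and 2274 bp in KrasLA1. The Mirc35hg region was 1556 and 1375 bp wide in KrasLA1;Dicer1S2D, against 1546 and 1477 bp in KrasLA1. The Snhg5 region measured 814 and 712 bp in KrasLA1;Dicer1S2D, against 807 and 955 bp in KrasLA1. These 3 overlapped between the genotypes.

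At Chaserr and Malat1, named after their values were seen, both KrasLA1;Dicer1S2D widths were below both KrasLA1 widths, which held at 21.4% of the shared intergenic regions and 27.2% of all shared regions. The Chaserr region was 1144 and 1322 bp wide in KrasLA1;Dicer1S2D and 1448 and 1609 bp in KrasLA1, a centred log2 difference of -0.15 (SE 0.18, limma, adjusted p = 0.999). The region at a start of Malat1, an abundant nuclear lncRNA, was 716 and 835 bp wide in KrasLA1;Dicer1S2D and 985 and 1764 bp in KrasLA1 (log2 difference -0.61, SE 0.25, limma, unadjusted p = 0.0470 and adjusted p = 0.999). The Junos region overlapped between groups, with 1683 and 975 bp in KrasLA1;Dicer1S2D and 1628 and 2260 bp in KrasLA1. In each of these 3 regions KrasLA1 replicate 2 was the widest library, as it was at 1966 of all 3918 regions (50.2%).

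**Figure D1:**
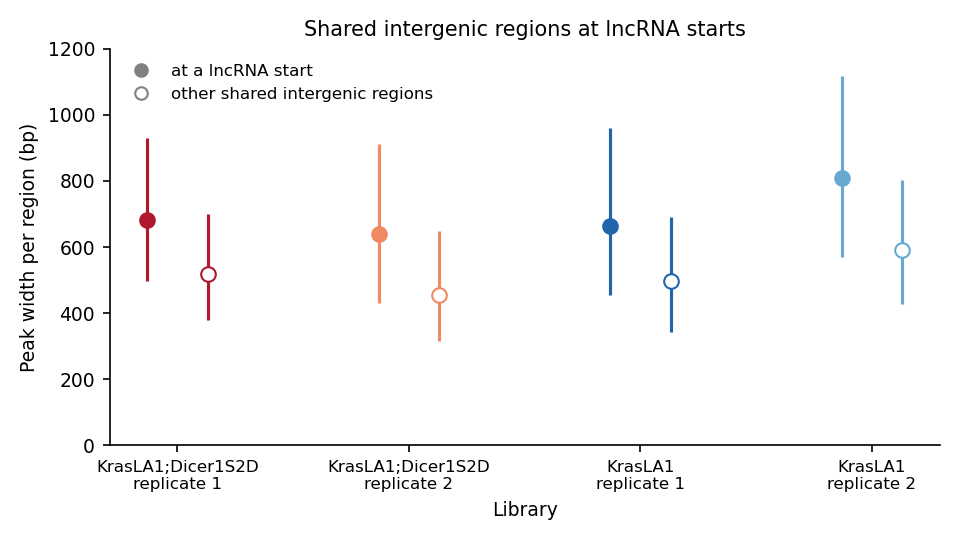
Peak width per region in base pairs for the 242 shared intergenic regions at a lncRNA start (filled) and the other 3676 (open), for each of the 4 libraries; points are medians and bars run between the quartiles. The filled points, 639.5 to 808.5 bp, stand above the open points, 456.5 to 591 bp, in every library. Wider regions are more likely to hold a start.

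The share of regions that held a lncRNA start was 6.18% for intergenic regions called in all 4 libraries, against 1.81%, 2.28% and 2.45% for those of the same distance range called in 1, 2 and 3 libraries. Wider regions can hold more starts: the median width was 684 bp for those called in all 4 libraries and 253, 367 and 476 bp for those called in 1, 2 and 3. Among shared regions of other distances, 7.26% of those within 2 kb of a gene end, 5.02% of those outside genes up to 10 kb, 3.64% of those over 100 kb and 1.85% of those inside genes held such a start. The side of the gene could be read for 2994 of the 3918 regions, whose nearest gene has a strand in the promoter table. Of these, 1742 (58.2%, 56.4 to 59.9) lay upstream of the gene, against 56.3% (54.5 to 58.1), 60.8% (58.4 to 63.1) and 58.8% (55.9 to 61.7) of the intergenic regions called in 1, 2 and 3 libraries.

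Transfer RNA genes, which RNA polymerase III transcribes, also mark some of the regions. Of 165 autosomal transfer RNA genes 10 to 100 kb from a protein-coding gene, 45 (27.3%, 21.1 to 34.5) lay in a region called in all 4 libraries, 3 in a region called in 1 to 3 and 117 in no region. Those called were thus nearly always called in every library. This was not particular to the distance range. Of 226 transfer RNA genes at other distances, 93 (41.2%, 34.9 to 47.7) lay in a shared region, 10 in a region called in 1 to 3 libraries and 123 in no region. The shared intergenic regions held 44 of the 165 genes, in 26 regions. Of 3648 intergenic regions called in 1 library 0 held a transfer RNA gene (upper Wilson limit 0.105%). Some of the 44 genes stood alone in their region, and others came in clusters. The largest held 9 genes in 4 regions over chr13:23438109-23519684, 5 genes in 3 regions over chr13:21160785-21234116, and 5 genes in 2 regions over chr19:12006039-12012338. Another held 4 genes over chr1:171101838-171103114 in 1 region. That region, 10655 bp from Cfap126, was 1206 and 1306 bp wide in KrasLA1;Dicer1S2D and 1330 and 1363 bp in KrasLA1. A transfer RNA region at chr19:12010970-12012512, 16856 bp from Osbp, varied more, with 840 and 1141 bp in KrasLA1;Dicer1S2D and 486 and 1543 bp in KrasLA1.

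The regions were spread over the whole distance range, and the share called in all 4 libraries ran between 33.6% and 35.8% along it, highest in the nearest bin. The difference between bins was not tested. The median distance to the nearest protein-coding gene was 29112 bp (quartiles 17195.8 and 50628 bp), and the median merged width was 684 bp (184 to 2852 bp). Of 11230 autosomal intergenic regions in the range, 3918 (34.9%, 34.0 to 35.8) were called in all 4 libraries. The share was 35.8% at 10 to 20 kb, 34.3% at 20 to 30 kb, 34.9% at 30 to 50 kb, 34.5% at 50 to 75 kb and 33.6% at 75 to 100 kb. It was 34.8% inside genes, 35.2% outside genes up to 10 kb, 29.1% over 100 kb and 70.7% within 2 kb of a gene end. At the limits of the rule, the regions just inside 10 kb lay 10007 bp from Zfp438, 10021 bp from Nanos3 and 10031 bp from Cyp2d10, and those just outside lay 10000, 9999 and 9994 bp from Ccdc9, Cpa6 and Mapkapk2. Just inside 100 kb they lay 99679 bp from Zfp365, 99542 bp from Fam78b and 99443 bp from Slc25a26, and just outside 100142, 100230 and 100243 bp from Gm38457, Jarid2 and Ptp4a1.

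The libraries differed more than the distances. Of the 11230 intergenic regions, 8689 (77.4%) and 5342 (47.6%) were called in the KrasLA1;Dicer1S2D libraries, against 7059 (62.9%) and 7029 (62.6%) in the KrasLA1 libraries. The 2 KrasLA1;Dicer1S2D libraries were thus the highest and the lowest, and both KrasLA1 libraries lay between them. Leaving out KrasLA1;Dicer1S2D replicate 2, 4534 regions met the rule in the 3 other libraries, against 4045, 4357 and 4207 without KrasLA1;Dicer1S2D replicate 1, KrasLA1 replicate 1 and KrasLA1 replicate 2.

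**Figure D2:**
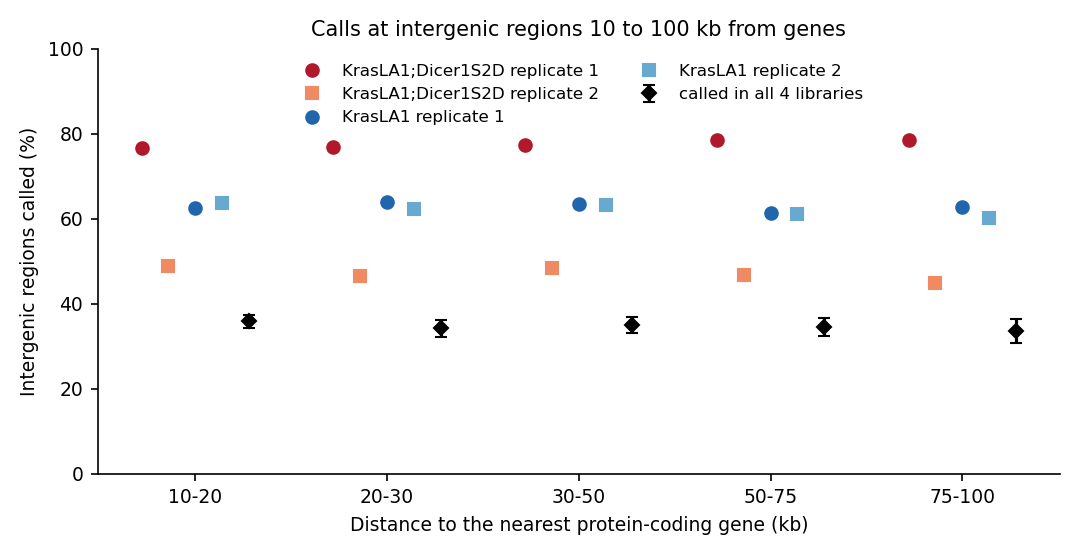
Percent of autosomal intergenic regions called in each library (coloured points) and in all 4 (black diamonds, bars are 95% Wilson intervals), by distance to the nearest protein-coding gene in kb. The black points stay between 33.6% and 35.8%, and KrasLA1;Dicer1S2D replicates 1 and 2 are the highest and lowest library in every distance bin.

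The shared intergenic regions had narrower peaks than those at gene ends in all 4 libraries, and medians within 34.5 bp of those of the 3 other distance classes. Their median width was 528.5 and 467 bp in the KrasLA1;Dicer1S2D libraries and 503 and 602 bp in the KrasLA1 libraries. All other shared regions had medians of 628 and 583 bp in KrasLA1;Dicer1S2D and 627 and 735 bp in KrasLA1, so the intergenic ones were narrower, with differences of -99.5, -116, -124 and -133 bp in the same order. The mean difference was -118 bp (exact two-sided sign-flip test over 4 libraries, p = 0.13, the smallest it can give). Against shared regions within 2 kb of a gene end it was -274 bp (p = 0.13, same exact test). Against those inside genes it was 6.63 bp (exact p = 0.5), against those outside genes up to 10 kb 13.8 bp (exact p = 0.13) and against those over 100 kb 16.1 bp (exact p = 0.25). The narrower width therefore held against gene ends and not against the other 3 distance classes, where the sign turned.

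**Figure D3:**
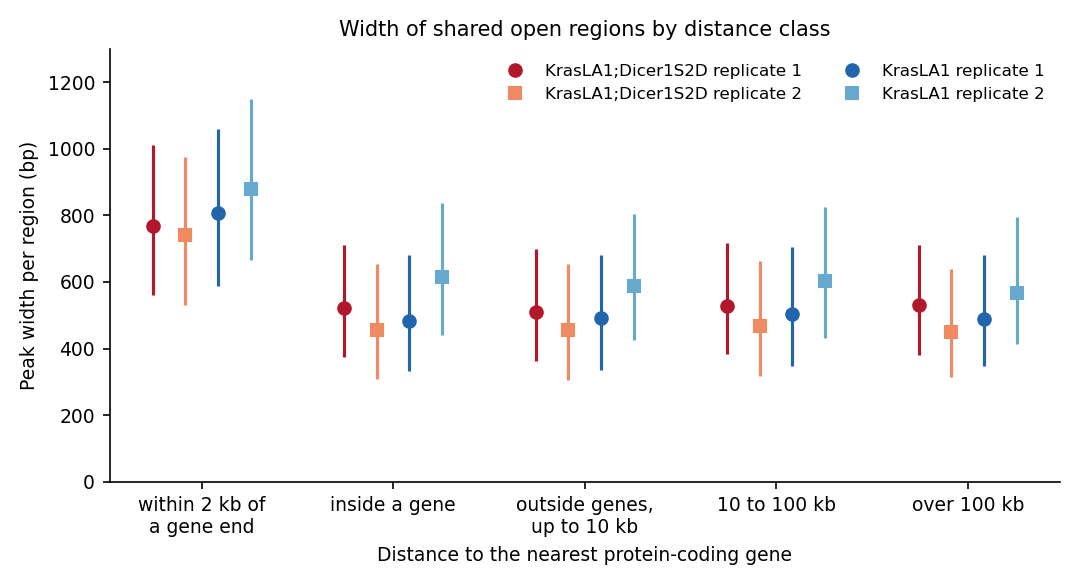
Peak width per region in base pairs for autosomal regions called in all 4 libraries, by distance class; points are the medians of each library and bars run between the quartiles. Regions within 2 kb of a gene end have medians of 740 to 880 bp, and the other 4 classes, with the 10 to 100 kb class at 467 to 602 bp, lie close together.

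Peaks of the 4 libraries covered much of the same bases. The bases covered in all 4 libraries were a median 56.5% of the bases covered in any (quartiles 42.6 and 70.8%), against 62.0% (46.3 and 75.4%) in all other shared regions. By class the median was 68.4% within 2 kb of gene ends, 55.6% inside genes, 57.3% up to 10 kb and 54.7% over 100 kb. In 3722 regions every library had exactly 1 peak, and in 16 the 4 libraries had no base in common. As a share of the narrowest library, the common bases were a median 98.1%, against 98.4% in all other shared regions, so the narrowest peak usually lay inside the others.

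No shared intergenic region passed the test for a difference in width between the genotypes. With limma on log2 peak widths centred on each library's median, 0 of 3918 passed an adjusted p of 0.05, against 0 (0%) of all 26402 shared regions tested, and the lowest adjusted p was 0.999. At an unadjusted p under 0.05, 35 were wider in KrasLA1;Dicer1S2D (0.893% of them, against 0.633% of all shared regions) and 67 were narrower (1.71%, against 1.95%). The median centred log2 difference was 0.06 over the intergenic regions and 0.04 over all shared regions, with 2316 of the 3918 above 0 and 1602 below. Without centring these medians were -0.10 and -0.12, with 1250 above 0 and 2668 below, so the sign followed the scaling, which moved the median of all regions by 0.16. Without KrasLA1;Dicer1S2D replicate 1 the same test called 1 of the regions, and without KrasLA1;Dicer1S2D replicate 2 it called 9, against 6 and 38 of all shared regions. It called 0 without either KrasLA1 library.

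The library medians of the 2 groups overlapped. The median widths averaged 497.75 ± 43.5 bp in KrasLA1;Dicer1S2D and 552.5 ± 70.0 bp in KrasLA1 (SD, n = 2 each), a difference of -54.8 bp, under the spread of the KrasLA1 libraries (exact two-sided permutation test, p = 0.667; the smallest this design allows is 0.33). Divided by each library's median over all shared regions, the values were 0.866 and 0.831 in KrasLA1;Dicer1S2D and 0.833 and 0.844 in KrasLA1, which overlap. On widths as deposited the groups did not overlap at 168 regions wider in KrasLA1;Dicer1S2D (4.29%, against 3.66% of all shared regions) and at 840 narrower ones (21.4%, against 27.2%). On widths divided by the library median these were 700 wider (17.9%, against 16.9%) and 376 narrower (9.60%, against 10.8%). The shares in both scalings followed those of all shared regions, and the direction that prevailed turned with the scaling.

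The regions at both ends of these differences are named for their size alone, from those where the groups did not overlap. The largest positive log2 difference, 1.43 (SE 0.24, limma, adjusted p = 0.999), was at a region 18085 bp upstream of Ulbp1, a ligand of the NKG2D receptor, at chr10:7491726-7492671. It was 946 and 917 bp wide in KrasLA1;Dicer1S2D, against 386 and 391 bp in KrasLA1. The largest negative one, -1.83 (SE 0.32, limma, adjusted p = 0.999), was 69161 bp from Tnp1, a transition protein of sperm chromatin, at chr1:72944703-72945913. It was 201 and 265 bp wide in KrasLA1;Dicer1S2D, against 822 and 1023 bp in KrasLA1. Next came positive differences of 1.39, 1.37, 1.16 and 1.10 near Supt3, Ptprg, Ezr and Pgm1, and negative ones of -1.79, -1.59, -1.56 and -1.54 near Wapl, Sptlc1, Sypl and Ing1, all with an adjusted p of 0.999. The libraries of each genotype were closer to each other than to the other genotype near Ulbp1 and Tnp1. The choice of regions with large differences and groups apart favours this, so it is not a result. Near Wapl the KrasLA1;Dicer1S2D libraries were far apart, at 168 and 671 bp in KrasLA1;Dicer1S2D against 1310 and 1300 bp in KrasLA1.

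The groups overlapped at each of the widest 4 regions. After the Dleu2 start, the next was a region 30741 bp downstream of Pawr, a regulator of apoptosis, at chr10:108445132-108447824. It was 2123 and 2395 bp wide in KrasLA1;Dicer1S2D, against 1860 and 2482 bp in KrasLA1. A region 56801 bp upstream of Klf6, a zinc finger factor, at chr13:5802203-5804688, was 2125 and 1649 bp wide in KrasLA1;Dicer1S2D, against 1953 and 2483 bp in KrasLA1. One 45378 bp upstream of Plxnc1, a semaphorin receptor, spanned 2035 and 1956 bp in KrasLA1;Dicer1S2D, against 1970 and 2091 bp in KrasLA1. The other 6 of the widest 10 lay near 1700001O22Rik, Arhgap5, Ezr, Ppara, Dock9 and Map3k7cl, and their log2 differences ran between -0.28 and 0.23. A lncRNA start lay in 5 of the 10. Near Map3k7cl the libraries differed most, with 2022 and 1556 bp in KrasLA1;Dicer1S2D and 2424 and 1325 bp in KrasLA1.

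The 3918 regions shared 2300 nearest genes, 11.1% of 20665 autosomal protein-coding genes. A single region was found at 1425 of these genes, and 5 or more at 86. The median gap from one region to the next was 83.5 kb, and 766 of 3899 gaps (19.6%) were at most 10 kb. Mbip, a MAP kinase pathway protein next to Nkx2-1, had 12 regions, as many as any gene, over chr12:56252164-56438762. Of these, 8 lay downstream of Mbip and 4 upstream, on the side of Nkx2-1, the factor that specifies lung epithelium. Their summed width was 9653 and 9654 bp in KrasLA1;Dicer1S2D, against 8876 and 13374 bp in KrasLA1. The widest of them, 45616 bp downstream, was 1327 and 1322 bp wide in KrasLA1;Dicer1S2D, against 1451 and 1601 bp in KrasLA1. The 4 on the Nkx2-1 side lay 58.897, 68.706, 80.282 and 91.813 kb from Mbip.

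Nkx2-1 itself, named here as the neighbour of Mbip and outside the naming rule, was the nearest gene of 2 regions. The one 11833 bp downstream of it, at chr12:56518323-56520102, was 785 and 886 bp wide in KrasLA1;Dicer1S2D, against 1294 and 1726 bp in KrasLA1. Its log2 difference was -0.68 (SE 0.18, limma, unadjusted p = 0.00805 and adjusted p = 0.999). The one 44418 bp downstream was 543 and 535 bp wide in KrasLA1;Dicer1S2D, against 529 and 680 bp in KrasLA1. Of 7 intergenic regions nearest to Nkx2-1, the KrasLA1;Dicer1S2D libraries called 2 and 2, and the KrasLA1 libraries 3 and 7. Over all 11230 intergenic regions they called 77.4% and 47.6% in KrasLA1;Dicer1S2D and 62.9% and 62.6% in KrasLA1.

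Ly86, a partner of the immune receptor Cd180 that lies between F13a1 and Rreb1, also had 12 regions, with summed widths of 8799 and 7693 bp in KrasLA1;Dicer1S2D and 7756 and 11362 bp in KrasLA1. Azin1, which blocks the inhibitor of polyamine synthesis, had 10. Hes1, a Notch target and repressor, had 9, with 6215 and 5288 bp in KrasLA1;Dicer1S2D and 6178 and 6629 bp in KrasLA1. Ywhaz (a 14-3-3 protein), Irf2bp2 (a transcriptional corepressor) and Arf6 (a small GTPase of membrane traffic) had 9 each. Wnt7b, a Wnt ligand of developing lung, Irs2, which relays insulin signals, and Gm46353 had 8 each. The regions of Arf6 and Gm46353 lay in the same gap, facing each other. At Wnt7b the summed widths were 5749 and 5378 bp in KrasLA1;Dicer1S2D, against 5685 and 7472 bp in KrasLA1. At Mbip, Ly86, Hes1 and Wnt7b, KrasLA1 replicate 2 had the largest summed width.

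**Figure D4:**
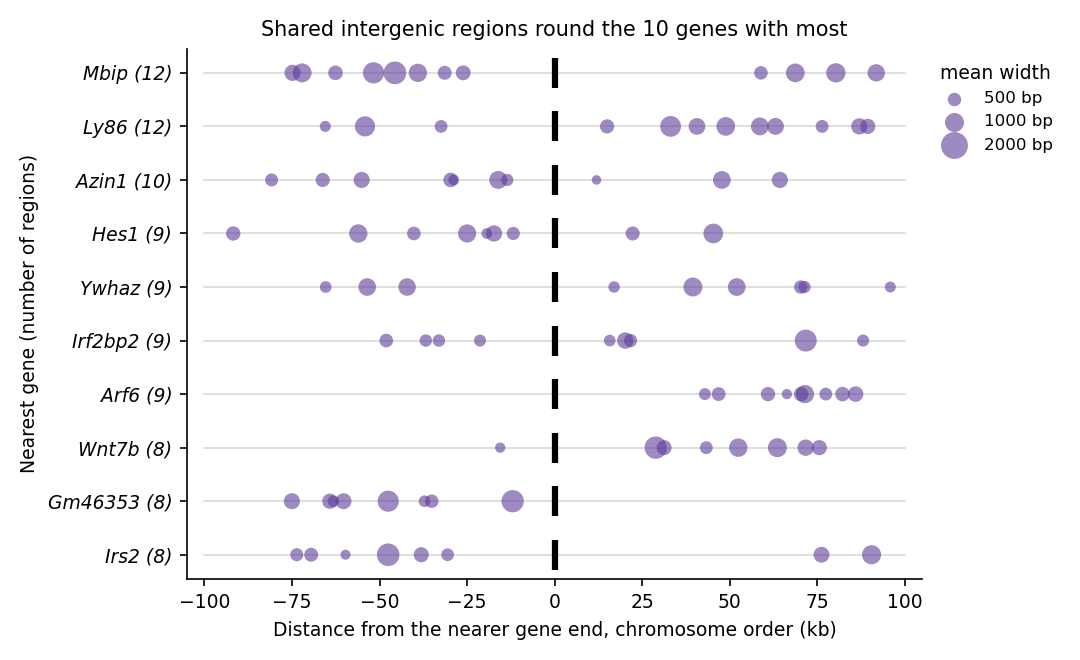
Shared intergenic regions round the 10 genes that had the most, placed by distance in kb from the nearer end of the gene (black bar, at 0) in chromosome order; circle area grows with the mean width over the 4 libraries. Mbip and Ly86 have 12 regions each, on both sides, while those of Arf6 and Gm46353 lie on 1 side only, the gap between them.

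The gene lists were set against the 11.1% of all genes, and the 19.3% of genes with a gap wide enough to hold such a region, that were the nearest gene of a shared intergenic region. Lung lineage factors had the highest share of genes with a region, 14 of 16. They had 39 regions, or 44.3% of the 88 intergenic regions nearest to them, against 34.9% over all genes, 56.5% for housekeeping genes, 56.3% for C/EBP, RUNX and TEAD genes and 52.8% for alveolar type 2 genes. Their gaps are wide, with a median of 106 kb usable per gene against 3.64 kb for all genes, and per Mb of gap they had 22.8 regions, against 7.40 for all genes. By that measure 6 other lists stood above them: housekeeping genes had 60.7 regions per Mb, alveolar type 2 genes 48.9, alveolar type 1 genes 35.7, C/EBP, RUNX and TEAD genes 32.7, epithelial genes 29.1 and AP-1 genes 28.9. Leaving out a library could not change this count, as it can only add genes and only 14 of the 16 had any intergenic region. Foxp2 and Tbx5 had 0 and no intergenic region in any library.

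Id2, an inhibitor of bHLH factors that marks tips of the growing lung, had 7 regions, all upstream, with summed widths of 3012 and 2920 bp in KrasLA1;Dicer1S2D, against 3026 and 2964 bp in KrasLA1. Foxa2, a forkhead factor of endodermal organs, had 6, with 3918 and 3840 bp in KrasLA1;Dicer1S2D, against 3991 and 4331 bp in KrasLA1. Gata6, a zinc finger factor of endoderm, had 5, with 2706 and 2647 bp in KrasLA1;Dicer1S2D, against 2637 and 2487 bp in KrasLA1. Klf5 had 4, with 2371 and 1644 bp in KrasLA1;Dicer1S2D, against 2230 and 2110 bp in KrasLA1. Groups overlapped at Id2 and Klf5. At Foxa2 both KrasLA1;Dicer1S2D sums were below both KrasLA1 sums, as at 22.2% of all 2300 genes with a region, and at Gata6 both were above, as at 3.91%. Divided by the library medians, the groups stayed apart at Gata6, as at 17.6% of the genes (9.13% were apart in the other direction), and overlapped at Foxa2.

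Alveolar genes had regions too. Of 18 alveolar type 2 genes 7 had a region, with 52.8% of their 36 intergenic regions shared, and of 12 alveolar type 1 genes 7 did, with 46.2% of 39. Sftpb, surfactant protein B, had 3 regions upstream, the nearest at 10733 bp and the farthest at 31705 bp, with 2886 and 3163 bp in sum in KrasLA1;Dicer1S2D, against 3227 and 3347 bp in KrasLA1. Slc34a2, the phosphate transporter of type 2 cells, had 6, all upstream, with 2900 and 3618 bp in KrasLA1;Dicer1S2D, against 2537 and 4170 bp in KrasLA1. Lpcat1, an enzyme of surfactant lipid synthesis, had 5, and the desaturase Scd1 2. Hopx, a cofactor that marks type 1 cells, had 6, with 3709 and 2556 bp in KrasLA1;Dicer1S2D, against 3750 and 4157 bp in KrasLA1. Vegfa, a growth factor for vessels that type 1 cells make, also had 6, with 4505 and 3874 bp in KrasLA1;Dicer1S2D, against 2781 and 5583 bp in KrasLA1. At Sftpb and Hopx both KrasLA1;Dicer1S2D sums were below both KrasLA1 sums, and divided by the library medians they overlapped. Sftpc, Sftpa1, Napsa and Abca3 lie in gaps too narrow to hold such a region and had 0. Lamp3, Lrp2, Lyz2, Ctsh and Hc also had 0, with usable gaps of 21.1, 21.0, 9.43, 3.64 and 0.758 kb.

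Genes downstream of Ras and MAP kinase were also often addresses. So were genes of the AP-1, KLF, C/EBP, RUNX and TEAD, TGF-beta and Wnt, and epithelial junction and keratin lists. Many of them also have wide gaps. The median usable gap per gene was 90 kb for MAPK targets, 106 kb for KLF and 90 kb for TGF-beta and Wnt genes, against 3.64 kb for all genes. Of 15 MAPK target genes 10 had a region, with 37.0% of their 73 intergenic regions shared, near the 34.9% of all genes. Per Mb of gap they had 21.8 regions, against 7.40 for all genes. Spry2, a feedback inhibitor of Ras signalling, had 6, with 4086 and 3745 bp in KrasLA1;Dicer1S2D, against 3401 and 4176 bp in KrasLA1. Phlda1 had 5, with 3169 and 2511 bp in KrasLA1;Dicer1S2D, against 3372 and 3521 bp in KrasLA1, groups that did not overlap on widths as deposited and overlapped on widths divided by the library medians. Ccnd1 (cyclin D1), Spred1 (an inhibitor of Ras activation) and the ERK phosphatase gene Dusp6 had 3 each. Of 12 AP-1 genes 6 had a region, led by Jun with 3, one of them the Junos start shown above, and by Fos and Atf3 with 2. At 33.3% of 30, the shared part of the AP-1 genes' intergenic regions was near the 34.9% of all genes. Of 9 KLF genes 6 had a region (Klf13 had 6 and Klf10 5), of 13 C/EBP, RUNX and TEAD genes 7 (Cebpb 6, Tead1 5), and of 14 TGF-beta and Wnt genes 9 (Tgfbr2 5, Ctnnb1 4). Of 12 epithelial junction and keratin genes, 6 did, with Epcam at 3 and Krt18 and Cdh1 at 2.

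Lists of other cell types, of airway and of stomach and gut had a region at a smaller share of their genes than the lung lineage and alveolar lists. Where the gap was wide enough, 30% of endothelial, 30% of fibroblast and smooth muscle, 28.6% of airway and 25% of intestinal genes had one. Those shares were above the 19.3% of all such genes. The shares of gastric (12.5%), lymphocyte (12.5%) and myeloid genes (11.1%) were below it. Median usable gaps ran from 1.20 kb for airway to 64.0 kb for fibroblast and smooth muscle genes, against 106 kb for lung lineage factors. Counts were 3 of 12 for endothelial genes (Erg and Egfl7 with 2 regions and Sox17 with 1), 3 of 12 for fibroblast and smooth muscle genes (Dcn with 2), 1 of 12 for lymphocyte genes (Bcl11b) and 1 of 12 for myeloid genes (Irf8). Of 11 intergenic regions nearest to myeloid genes, the KrasLA1;Dicer1S2D libraries called 4 and 1, and the KrasLA1 libraries 6 and 6, where the shares over all intergenic regions were 77.4% and 47.6% in KrasLA1;Dicer1S2D and 62.9% and 62.6% in KrasLA1. At Marco, a scavenger receptor of macrophages, 5 regions were called in KrasLA1 replicate 2 and 0 in the 3 other libraries. Airway genes counted 2 of 12, intestinal genes 2 of 10 and gastric genes 2 of 19, the gastric ones being Foxq1 and Creb3l1 with 4 regions each. Housekeeping genes counted 3 of 12, but 3 of the 5 with a wide enough gap, and 9 of their 13 regions lay at Ywhaz. With 1 to 3 genes each, these lists hold too few regions for a comparison of the libraries.

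**Figure D5:**
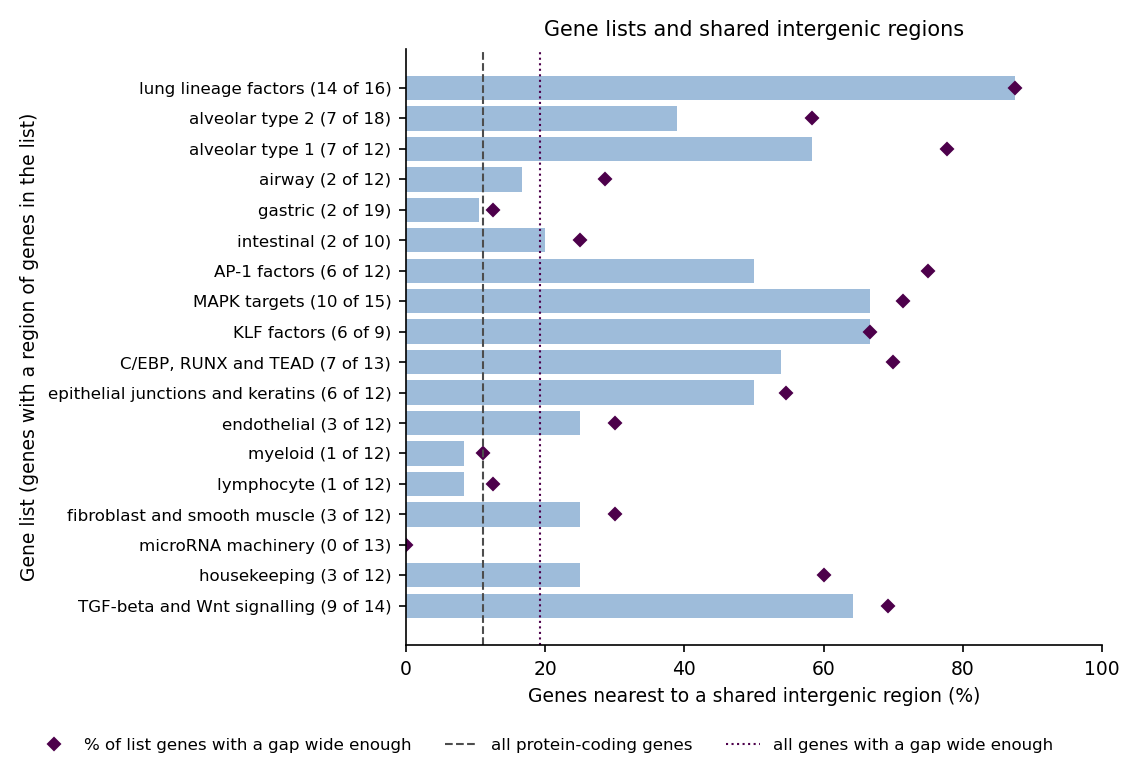
Percent of genes in each list that were the nearest gene of a shared intergenic region (bars), and of the list's genes with a gap wide enough to hold one (diamonds); the dashed and dotted lines give the same for all genes, 11.1% and 19.3%. Lung lineage factors, with a median usable gap of 106 kb per gene, reach 87.5%. The microRNA machinery, with a median of 0.39 kb, is at 0.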

How the data were processed

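ATAC-seq peaks of 4 lung tumour libraries were used. Per the file headers, the deposited table holds 5 tracks of intervals in mm10, 1 of peaks for each library and 1 of merged regions. Its values are interval starts and ends (positions in bp) made by the authors, with no count, score or signal. deepTools 3.5.1, MACS3 3.0.0 and BWA 0.7.12 are listed in the submitters' processing notes, with no role; settings, the peak threshold and any shift of reads for the transposase are not stated there. 0 columns belonged to other samples.

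From these, the peak width of a region in a library was the sum of its peaks there. Genes, start windows and microRNAs came from RefSeq tables for GRCm38.p6, the primary assembly of mm10; a distance is the gap to the nearest gene body. limma 3.58.1 (R 4.3.3, trend) was fitted to log2 widths of all 26402 shared autosomal regions, centred on each library's median, with Benjamini-Hochberg adjustment. It was tested on simulated data with the same fixed spread in every region. That spread was not taken from these data, so the simulation does not show what differences the test could find here. Medians were compared with exact tests over libraries in Python 3.11.15 (numpy 2.4.6, pandas 2.3.3, scipy 1.17.1, matplotlib 3.10.9). p-values measure the spread between these 4 samples.

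The regions and gene lists were chosen with earlier results of these data known. Named were the 10 widest regions, the 5 per direction with the largest log2 difference where the groups did not overlap, the 3 nearest each distance limit, the 10 genes with most regions and up to 4 genes per list with most; the lncRNAs and microRNAs were chosen after their values were seen. A gap counted as wide enough where it left bases over 10 and up to 100 kb from the gene and nearer to it than to any other. No genome was used, so the motif search planned for the regions was made on start windows, with 3 motifs added. One replicate number was shared by 1 female or 1 male of each group, and the main test took no account of it.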

Additional observations from a re-analysis of the deposited data

Results flagged for a closer look

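The genotype difference in the median width of the shared intergenic regions pointed in opposite directions in the 2 sexes. In the females (replicate 1) the median was 528.5 bp in KrasLA1;Dicer1S2D and 503 bp in KrasLA1, a difference of 25.5 bp. In the males (replicate 2) it was 467 bp in KrasLA1;Dicer1S2D and 602 bp in KrasLA1, a difference of -135 bp. With 1 mouse per sex and genotype, the difference between the sexes was not tested, and sex cannot be told apart from the single library. Of the 3918 regions, 2261 (57.7%) were wider in KrasLA1;Dicer1S2D among the females and 698 (17.8%) among the males. Divided by the median of each library over all shared regions, the values were 0.866 against 0.833 in the females and 0.831 against 0.844 in the males, KrasLA1;Dicer1S2D first in both.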

How the results depend on the processing

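Of 10 alternatives for the number of regions, 9 stayed within 1.5 times of 3918. Distances to any gene of the RefSeq table left 2264 regions. Leaving out single libraries, which can only add regions, gave 4045 to 4534. The genotype difference in median width turned to 0.0101 when widths were divided by the library's median, and ran from -104 to -5.25 bp with single libraries left out. The median log2 difference was -0.10 without centring and 0.03 to 0.08 with single libraries left out. limma called 0 of the regions under every other setting run, and 0 to 9 with single libraries left out, 1 without the female and 9 without the male KrasLA1;Dicer1S2D library, which assumes that the lone sample varies like the other group. At an unadjusted p under 0.05 these fits gave 161 to 220 regions, against 102 with all libraries. With a replicate block, limma called 0 (lowest adjusted p 0.118), 189 had an unadjusted p under 0.05 and the median was 0.06; deviations of same-numbered libraries had a correlation of 0.120 over all shared regions, and the number shares only the sex. Width against other shared regions kept its sign except by class: 6.63 bp against regions inside genes, 13.8 bp against those up to 10 kb and 16.1 bp against those over 100 kb; it was -124 to -113 bp with single libraries left out. Genes of any list with a region were 85, against 86 to 89 with single libraries left out, which can only add genes. These alternatives were chosen after seeing the data, as were those for the lncRNA starts (149 to 189 bp). The causes of these shifts were not tested. Unknown depth and peak threshold limit what an absent or narrow peak shows.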
